A study of Homo sapiens with 8 samples.

Results

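The genes described here build, drive and check the mitotic spindle: mitotic kinases and cyclin B, the spindle checkpoint, the anaphase-promoting complex, centromere and kinetochore proteins, condensin, and the kinesin motors. They were chosen by gene symbol, not by their values, and 71 of the 9245 rows of the deposited table matched. By role they were 7 kinases and cyclins, 6 checkpoint genes, 10 genes of the anaphase-promoting complex (APC/C), 19 centromere and kinetochore genes, 6 condensin subunits, 12 mitotic kinesins and 11 other kinesins. The symbol rule was wider than mitosis: the 11 other kinesins mostly carry cargo along microtubules, and CENPJ is a centrosome protein. The 51 genes left without those kinesins and without the 9 ANAPC subunits are called the core mitotic genes. This core still holds CENPJ and KIF24, a kinesin of the centriole, so it is not purely mitotic.

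The cells were SK-BR-3, a breast cancer line of human origin that carries extra ERBB2 copies, in which the neighbouring microRNA genes mir-141 and mir-200c had been knocked out with TALENs, designed nuclease pairs. Messenger RNA was sequenced from mir-141 knockout (KO) cells, mir-200c KO cells, double KO cells that lack both, and wild type cells, with 2 libraries in each group and 8 in all. The 2 libraries of a group came from different experimental sets, called set 1 and set 2. The knockout libraries were single clones, numbers 23 (mir-141), 11 (mir-200c) and 55 (double) in set 1 and numbers 10, 29 and 61 in set 2, so that clone and set cannot be told apart.

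Entry into mitosis is driven by CDK1 bound to cyclin B, with the polo and Aurora kinases acting at centrosomes, kinetochores and the cleavage furrow. Kinetochores assemble on centromeric chromatin marked by CENPA and bind spindle microtubules through the NDC80 complex. Unattached kinetochores load the checkpoint proteins, which hold CDC20 and so keep the APC/C from destroying cyclin B, while condensin compacts the chromosomes and kinesins slide, shorten or cross-link microtubules. Many of these genes are transcribed mainly late in the cell cycle, so their mRNA level in a culture depends on how many cells are dividing. In bulk RNA, fewer cells in mitosis and less of an mRNA per cell cannot be told apart.

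MicroRNAs bind target mRNAs mainly through the seed, bases 2 to 8 from the 5′ end, shown in capitals because the 2 deleted microRNAs differ there. Both lie on the forward strand of chromosome 12, mir-141-3p at chr12:6964155-6964176 and mir-200c-3p at chr12:6963742-6963764 (RefSeq, GRCh38.p14). Their seeds differ by 1 substitution, C4U, counted from the 5′ end with the mir-141-3p base first.
hsa-miR-141-3p: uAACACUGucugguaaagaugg
hsa-miR-200c-3p: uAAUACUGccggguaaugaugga

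Matches to either seed, of 7 or 8 bases, were looked for in the longest annotated 3′ UTR of each gene (GENCODE release 29, GRCh38). Of the 71 genes, 18 (25.4%) held such a site, against 38.8% of the 9207 rows with a 3′ UTR, and their median 3′ UTR was 814 bases long, against 1305 bases over all rows. A site for mir-141 alone was found in 9 genes, a site for mir-200c alone in 8 and sites for both in KIF24, a kinesin of the centriole. The sites below, in capitals, are from the kinesins KIF24, KIF14 and KIF11, the centromeric histone CENPA and the checkpoint protein MAD2L1. The values of these genes are given further on. KIF14 has another mir-200c site, of 7 bases, which is not printed. AURKA, PLK1, CCNB2, BUB1 and KIF20A held no site.
KIF24 mir-200c site: gacaatggcaCAGTATTAaggtcaagga
KIF24 mir-141 site: tcctgcaatcCAGTGTTgaggcagaag
KIF14 mir-200c site: gcagtcagaaCAGTATTAgtgaaccttg
KIF11 mir-200c site: tccctcctttCAGTATTtttcacttgt
CENPA mir-141 site: ctcctgcaccCAGTGTTtctgtcagtc
MAD2L1 mir-141 site: gactctggctCAGTGTTgcttaccata

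The deposited values are log2 ratios of a knockout clone to its own set's wild type, so a value below 0 means less of the mRNA in the clone. No level, count or depth can be read from them. Across the 9245 rows the ratios of the 2 sets, which share no library, were uncorrelated: over 9 pairs of clones Pearson's r lay between −0.0022 and 0.010, and across the 71 genes between −0.13 and 0.060. Genes are not independent replicates, and whether a row of set 2 holds the gene named beside it was not tested. Set 1 is therefore described first, and each result is given with set 2 beside it or without it. The line's markers were in the table for 11 of 12 genes, ERBB2, EPCAM and the keratins among them (CDH1 is not analysed here), while their levels could not be checked. Neither deleted microRNA has a row used here, and the values therefore hold no check of the knockouts.

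No member passed the test in any comparison. With limma and Benjamini-Hochberg adjustment over all 9245 rows, 0 members and 0% of all rows had an adjusted p under 0.05 in each of 6 comparisons over both sets and 2 over set 1. Against wild type, 4 members had an unadjusted p under 0.05 in the mir-141 knockout (2.68% of all rows did), 6 in the mir-200c knockout (5.4% of all rows) and 7 in the double knockout (6.28% of all rows). The smallest adjusted p of a member in these limma fits was 0.998 for the mir-141 knockout, 0.793 for the mir-200c knockout and 0.740 for the double knockout. For the interaction of both losses 2 members, KIF18A and CENPB, were under an unadjusted 0.05, against 1.7% of all rows. The 6 comparisons over both sets pool rows whose ratios were uncorrelated between the sets. The 2 over set 1 leave 1 residual degree of freedom. The 0 calls therefore do not show that the members were unchanged. The values that follow are thus measurements of single clones whose differences did not pass a test.

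In set 1 the members lay a little below all rows in each clone. Their median log2 ratio was −0.034 in mir-141 KO, −0.094 in mir-200c KO and −0.15 in double KO cells, against −0.0084, −0.017 and −0.027 over all rows. For the core mitotic genes the medians were −0.057, −0.18 and −0.22. Large ratios were few: in the mir-200c knockout 9 members lay at or below −0.5 and 4 at or above 0.5, where 7.92% and 9.05% of all rows did. In the double knockout 5 members lay at or below −0.5 and 2 at or above 0.5 (5.06% and 7.36% of all rows), and in the mir-141 knockout 1 and 2 did (2.63% and 3.55% of all rows). Set 2 gave member medians of −0.093, −0.037 and −0.049.

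**Figure D1:**
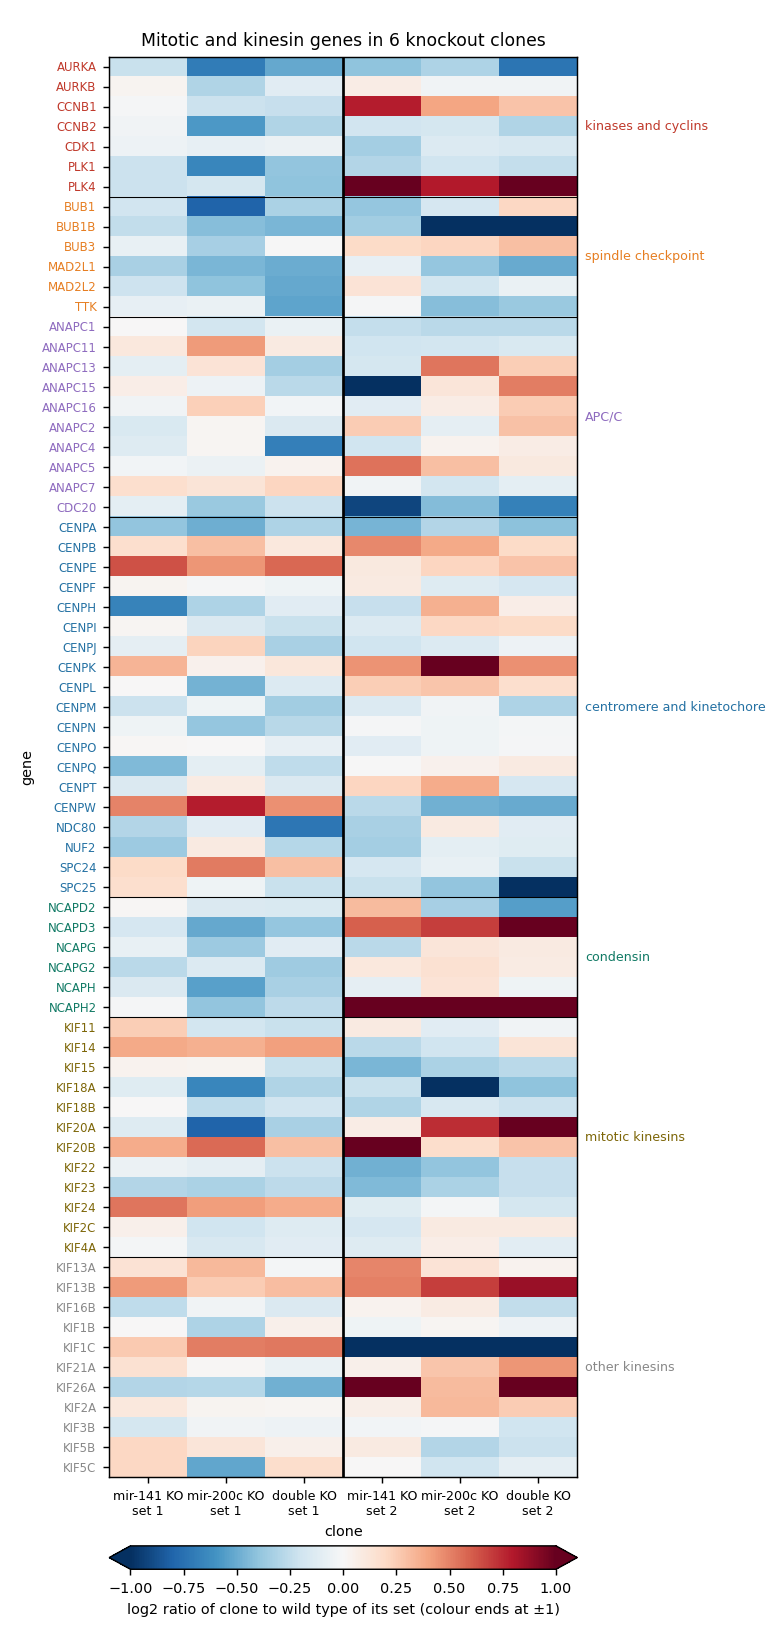
Log2 ratio of a clone to its set's wild type (colour, ending at ±1) for the 71 genes (rows, coloured by role) in the 6 clones (columns, set 1 left of the thick line, set 2 right of it). In set 1 the kinase, checkpoint and condensin blocks are mostly blue in the mir-200c and double knockouts, while CENPE, CENPW, KIF14, KIF20B and KIF24 are red in the clones of set 1; columns of 1 set share a wild type.

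Among the kinases and cyclins, all 7 had a ratio below 0 in both set 1 clones that lack mir-200c, where 52% and 53.7% of all rows did, and 6 of 7 did in the mir-141 knockout, where 51.9% of all rows did. The medians were −0.048 in mir-141 KO, −0.30 in mir-200c KO and −0.30 in double KO cells. The clones of a set share 1 wild type, so these counts are not independent of each other. AURKA (chr20:56369389-56392337, minus strand, GRCh38), the Aurora kinase of centrosomes and spindle poles, had −0.22 in mir-141 KO, −0.70 in mir-200c KO and −0.51 in double KO cells of set 1. The same clones gave PLK1 (chr16:23677656-23690367, plus strand), the polo kinase that acts from mitotic entry to cytokinesis, −0.22, −0.65 and −0.39. For both kinases the mir-200c knockout was the lowest of the 3 clones and the mir-141 knockout the nearest to wild type. CCNB2, a cyclin B, followed the same order with −0.03, −0.57 and −0.30. In set 2 AURKA had −0.40, −0.31 and −0.73, PLK1 had −0.29, −0.20 and −0.24, and CCNB2 had −0.19, −0.18 and −0.30. There the mir-200c knockout was the nearest of the 3 clones to wild type for each gene, unlike in set 1. These 3 genes are among 15 of the 71 members that lay below wild type in each of the 6 clones. Of all rows 10.4% did so.

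The other 4 kinases and cyclins were mixed. CDK1, the kinase that cyclin B activates, had −0.05, −0.08 and −0.06 in mir-141 KO, mir-200c KO and double KO cells of set 1, with −0.34, −0.14 and −0.16 in set 2. AURKB, the Aurora kinase of the chromosomal passenger complex, had 0.03, −0.30 and −0.11 in set 1, with 0.08, −0.04 and −0.04 in set 2. Of this pair CDK1 was below wild type in each clone and AURKB was not. CCNB1, the main mitotic cyclin, lay at −0.01, −0.21 and −0.23 in set 1 but at 0.79, 0.39 and 0.29 in set 2. PLK4, which starts centriole duplication, likewise lay at −0.21, −0.18 and −0.40 in set 1 and at 1.01, 0.79 and 1.08 in set 2. CCNB1 and PLK4 thus stood on opposite sides of wild type in the 2 sets, and CDK1 on the same side in both.

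All 6 spindle checkpoint genes had ratios below 0 in each clone of set 1, where 29.9% of all rows did, and 3 of 6 had them in each clone of set 2. The set 1 medians were −0.20 in mir-141 KO, −0.42 in mir-200c KO and −0.48 in double KO cells. BUB1, the kinase that marks unattached kinetochores, had −0.19, −0.80 and −0.32 in these clones, the lowest value of any member in the mir-200c knockout of set 1. MAD2L1, the MAD2 protein that captures CDC20, had −0.32, −0.46 and −0.49. BUB1B, the BUBR1 subunit of the mitotic checkpoint complex, had −0.25, −0.43 and −0.46. MAD2L1 and BUB1B differed little between the mir-200c and the double knockout, while BUB1 stood lowest in the mir-200c knockout. TTK, the kinase that starts checkpoint signalling, showed −0.08, −0.07 and −0.53, so only its double knockout clone stood apart from wild type. MAD2L2, which also works in DNA repair, had −0.21, −0.41 and −0.51, and BUB3, the partner of both BUB proteins, had −0.07, −0.33 and −0.0014.

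Set 2 put MAD2L1 at −0.08, −0.39 and −0.51 and TTK at −0.01, −0.43 and −0.37 in mir-141 KO, mir-200c KO and double KO cells. BUB1B was listed at −0.34, −2.12 and −3.83 there, far outside its range in set 1, and BUB1 at −0.39, −0.16 and 0.21. BUB3 lay above wild type in set 2, at 0.19, 0.22 and 0.30, and MAD2L2 lay at 0.14, −0.18 and −0.07. The order of the clones was thus like that of set 1 for MAD2L1 but not for BUB1 or BUB3.

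The APC/C group held the activator CDC20 and 9 subunits. CDC20, which brings substrates to the complex, had −0.10 in mir-141 KO, −0.37 in mir-200c KO and −0.21 in double KO cells of set 1, with −0.92, −0.43 and −0.67 in set 2. CDC20 was the lowest of the 10 genes in the mir-200c knockout of set 1, but subunits lay below it in the other set 1 clones. Over the 10 genes the set 1 medians were −0.030, 0.017 and −0.10. ANAPC4, a platform subunit, had −0.13, 0.02 and −0.68, and ANAPC11, the RING subunit that binds the ubiquitin-conjugating enzyme, had 0.10, 0.43 and 0.09. The low ANAPC4 value came from the double knockout clone and the high ANAPC11 value from the mir-200c clone; in set 2 ANAPC4 had −0.20, 0.03 and 0.07 and ANAPC11 had −0.20, −0.18 and −0.16.

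**Figure D2:**
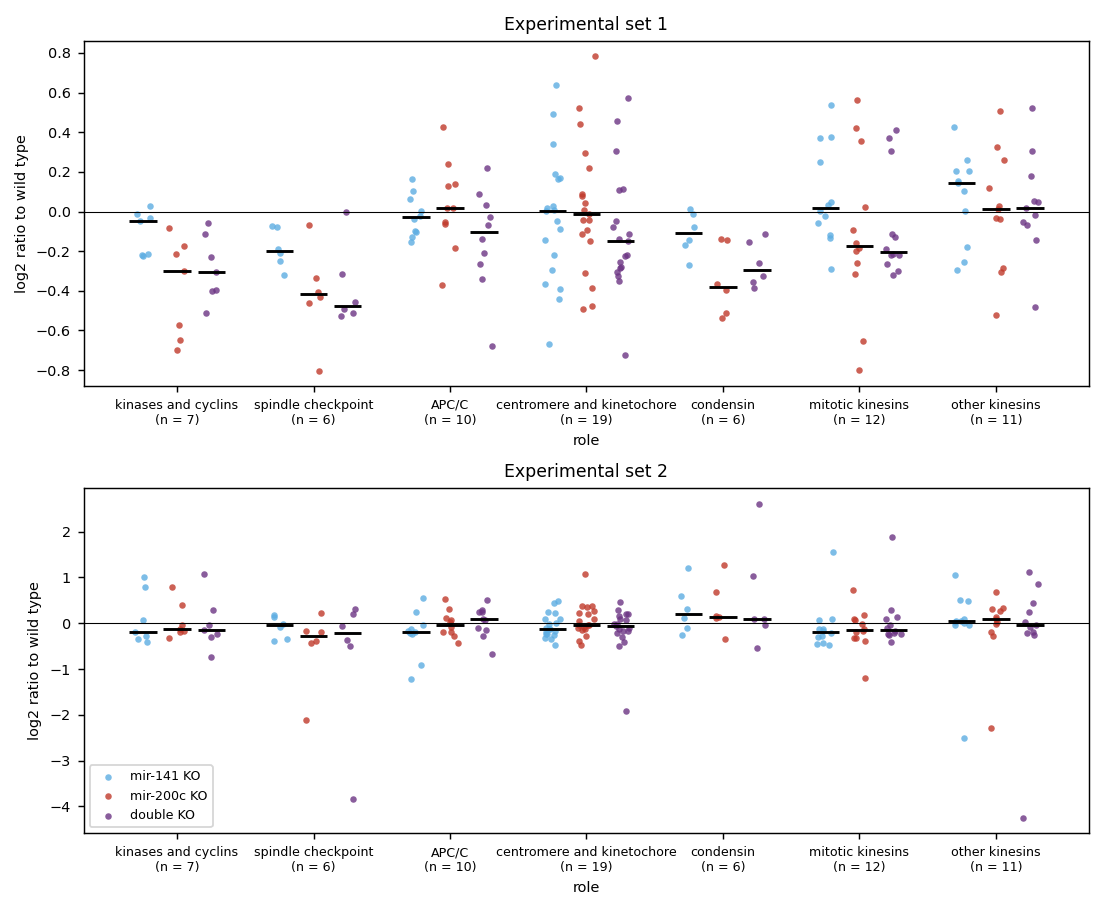
Log2 ratio to wild type for each gene (points) by role (x axis) in mir-141 KO, mir-200c KO and double KO clones, with the median of each group as a black bar; set 1 is above and set 2 below, on different y scales. In set 1 the checkpoint medians of −0.20, −0.42 and −0.48 are the lowest of the 7 roles. The other kinesins have set 1 medians of 0.14, 0.013 and 0.019. In set 2 single genes reach −4.25 and 2.61.

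The 19 centromere and kinetochore genes were spread on both sides of wild type, with medians of 0.0015, −0.010 and −0.15 in mir-141 KO, mir-200c KO and double KO cells of set 1. CENPA, the histone H3 variant that marks the centromere, had −0.39, −0.49 and −0.31 in set 1, with −0.47, −0.29 and −0.41 in set 2, below wild type in each of the 6 clones. CENPE, the kinetochore motor that carries chromosomes to the spindle equator, had 0.64, 0.44 and 0.57 in set 1, with 0.10, 0.22 and 0.28 in set 2, above wild type in each. CENPF, a large protein of the outer kinetochore, stayed within 0.05 of wild type in set 1, at 0.03, −0.01 and −0.05, and had 0.09, −0.13 and −0.16 in set 2. CENPA and CENPE, both kinetochore genes, thus lay on opposite sides of wild type. Among the 71 members 15 were below wild type in all 6 clones and 6 above it, where 10.4% and 6.65% of all rows were.

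The 4 subunits of the NDC80 complex, the main microtubule binder of the kinetochore, did not share 1 direction. NDC80 had −0.29 in mir-141 KO, −0.12 in mir-200c KO and −0.72 in double KO cells of set 1, and its dimer partner NUF2 had −0.36, 0.09 and −0.29. SPC24, of the inner dimer, had 0.19, 0.52 and 0.30, and its partner SPC25 had 0.17, −0.04 and −0.22. NDC80 and NUF2 were lowest in the clones that lack mir-141, whereas SPC24 was above wild type throughout set 1. In set 2 NDC80 had −0.32, 0.09 and −0.11, NUF2 had −0.34, −0.10 and −0.12, SPC24 had −0.17, −0.07 and −0.22, and SPC25 had −0.22, −0.40 and −1.91. CENPW and CENPH, also of this group, had large ratios in set 1. CENPW, a histone-fold protein of the inner kinetochore, had 0.49, 0.78 and 0.46, and CENPH, also of the inner kinetochore, had −0.67, −0.31 and −0.11. In set 2 CENPW had −0.27, −0.48 and −0.51 and CENPH had −0.23, 0.35 and 0.06, so CENPW lay on the other side of wild type there in each clone and CENPH in those without mir-200c.

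The 6 condensin subunits named NCAP were below wild type in the mir-200c and double knockouts of set 1 (6 of 6 in each). Their medians there were −0.38 and −0.29. In the mir-141 knockout 5 of 6 were below it, with a median of −0.11. The condensin subunits SMC2 and SMC4 fell outside the symbol rule and did not share this direction. In mir-141 KO, mir-200c KO and double KO cells of set 1, SMC2 had 0.11, 0.32 and 0.09. SMC4 had 0.19, −0.03 and −0.32. NCAPH, the kleisin of condensin I, had −0.14, −0.54 and −0.33 in mir-141 KO, mir-200c KO and double KO cells. NCAPG and NCAPD2, the other NCAP subunits of condensin I, had −0.08, −0.37 and −0.11, and 0.01, −0.15 and −0.15. The mir-200c knockout was the lowest clone for NCAPH and NCAPG. In set 2 the condensin medians were above 0, at 0.21, 0.15 and 0.088, with NCAPH at −0.09, 0.14 and −0.04, NCAPG at −0.27, 0.12 and 0.09, and NCAPD2 at 0.32, −0.34 and −0.55. The condensin II subunit NCAPH2 was listed there at 1.21, 1.28 and 2.61, against −0.01, −0.39 and −0.26 in set 1.

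Mitotic kinesins divided into genes below and genes above wild type, with medians of 0.018, −0.17 and −0.20 over 12 genes in set 1. KIF20A, which carries the passenger complex to the spindle midzone, had −0.13 in mir-141 KO, −0.80 in mir-200c KO and −0.32 in double KO cells of set 1, with 0.07, 0.73 and 1.89 in set 2. KIF18A, which dampens chromosome movements, had −0.12, −0.65 and −0.30 in set 1, with −0.22, −1.19 and −0.40 in set 2. Of these 2 motors only KIF18A was lowest in the mir-200c knockout in both sets. KIF23, the motor of the centralspindlin complex in cytokinesis, was flat across the clones at −0.29, −0.32 and −0.26, with −0.44, −0.32 and −0.23 in set 2. KIF11, which pushes spindle poles apart, had 0.25, −0.18 and −0.22, and 0.09, −0.12 and −0.03 in set 2. KIF2C, which shortens microtubules, had 0.05, −0.20 and −0.13 (set 2: −0.17, 0.09 and 0.09), and KIF4A, a chromosome-bound motor, had −0.02, −0.16 and −0.11 (set 2: −0.13, 0.07 and −0.11).

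Above wild type in set 1 were KIF14, a motor of cytokinesis, at 0.38, 0.36 and 0.41, KIF20B at 0.37, 0.56 and 0.30, and KIF24 at 0.54, 0.42 and 0.37 in mir-141 KO, mir-200c KO and double KO cells. KIF14 and KIF24 carry the 8-base mir-200c sites printed above, and KIF20B carries none. Both were also above wild type in the mir-141 knockout, in which mir-200c was not deleted, and KIF24 also carries a mir-141 site. Of the 8 genes with a mir-200c site alone, 3 were above 0 in the mir-200c knockout of set 1. A link between site and value was not tested. In set 2 KIF14 had −0.27, −0.20 and 0.13 and KIF24 had −0.12, −0.02 and −0.18, while KIF20B had 1.55, 0.18 and 0.28. Only KIF20B of the 3 was above wild type in each clone of both sets.

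The other kinesins had medians of 0.14, 0.013 and 0.019 in set 1. KIF1C, a motor of vesicle transport with 3 mir-141 sites in its 3′ UTR, had 0.26 in mir-141 KO, 0.51 in mir-200c KO and 0.52 in double KO cells of set 1, but was listed at −2.50, −2.29 and −4.25 in set 2. KIF13B, another transport motor, had 0.43, 0.26 and 0.31 in set 1, with 0.50, 0.69 and 0.87 in set 2. KIF5C, a kinesin-1 heavy chain known from neurons, had 0.21, −0.52 and 0.18, and 0.01, −0.20 and −0.09 in set 2. The 2 sets thus disagreed in sign for KIF1C and shared it for KIF13B.

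A seed site could be set beside the clone that lacks its microRNA. In set 1 the 9 genes with a mir-141 site alone had a median of −0.079 in the mir-141 knockout, and the 53 genes with no site −0.023. In the mir-200c knockout the 8 genes with a mir-200c site alone had a median of −0.066, and the 53 without a site −0.15. Over all rows the medians were 0.0056 with a mir-141 site alone and −0.011 without a site in the mir-141 knockout. In the mir-200c knockout they were −0.0010 with a mir-200c site alone and −0.026 without a site. KIF24, which has both, was at 0.54 and 0.42 in those clones. These are descriptions of single clones and carry no test.

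The design allows each loss to be read in 2 backgrounds that share no library: loss of mir-200c as mir-200c knockout minus wild type and as double knockout minus mir-141 knockout, and loss of mir-141 likewise. In set 1, loss of mir-200c gave a difference below 0 in both backgrounds for 37 of 71 members and 33 of 51 core mitotic genes, where 34.1% of all rows did, and above 0 in both for 7 members, where 28.9% of all rows did. Below 0 in both were 7 of 7 kinases and cyclins, 6 of 6 NCAP subunits of condensin, 5 of 6 checkpoint genes and 7 of 12 mitotic kinesins. The 7 of 19 centromere and kinetochore genes and the 3 of 10 APC/C genes were near the share of all rows, and 2 of 11 other kinesins were below it. Averaged over both backgrounds the median difference was −0.13 for the members and −0.19 for the core genes, against −0.020 over all rows. In set 2 the count of members below 0 in both backgrounds was 23 of 71, near the 31.9% of all rows there.

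**Figure D3:**
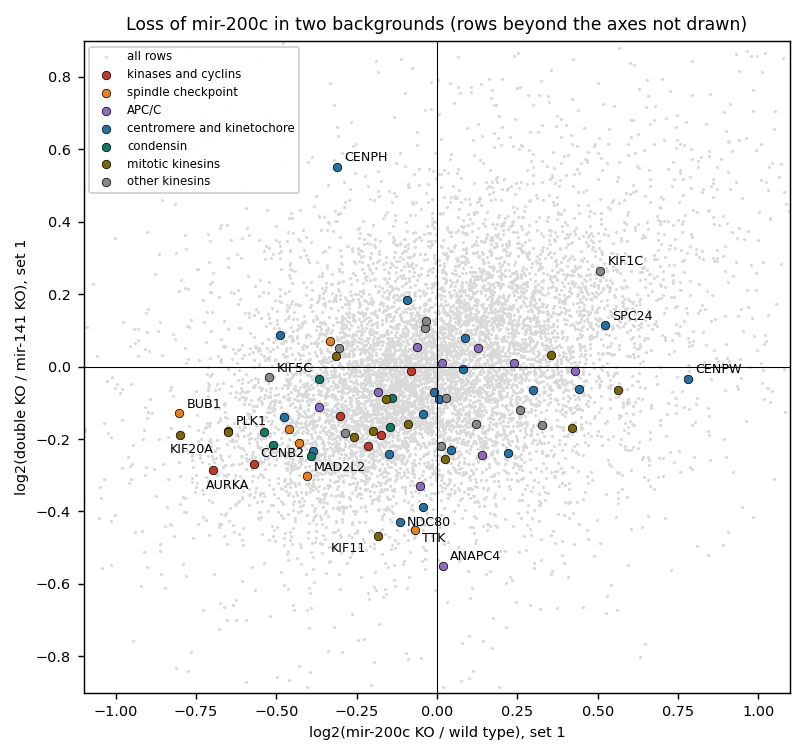
Each point is a gene of set 1, with the log2 ratio of the mir-200c knockout to wild type on the x axis and that of the double knockout to the mir-141 knockout on the y axis; members are coloured by role and all rows are grey. The lower left part holds 37 of the 71 members, among them AURKA, PLK1, CCNB2, BUB1 and KIF20A, and the upper right holds 7.

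The largest differences for loss of mir-200c were those of KIF20A, AURKA, BUB1, CCNB2 and KIF18A on the low side and of KIF1C, CENPW, SPC24, KIF20B and ANAPC11 on the high side in set 1. AURKA differed by −0.70 in the wild type background and −0.29 in the mir-141 knockout background, with a limma estimate of −0.49 ± 0.16 (SE, 4 libraries, adjusted p = 0.401). For CCNB2 the differences were −0.57 and −0.27 (−0.42 ± 0.14, limma adjusted p = 0.406). KIF20A and BUB1 differed mostly in the wild type background, by −0.80 and −0.80, against −0.19 and −0.13 in the mir-141 knockout background. CENPW, at 0.78 and −0.03, was above 0 in 1 background and not the other. In set 2, 7 of these 10 genes had a mean difference of the opposite sign: KIF20A was at 1.28 and BUB1 at 0.22, and KIF1C, CENPW, SPC24, KIF20B and ANAPC11 were at −2.02, −0.36, −0.06, −0.54 and −0.07. AURKA, CCNB2 and KIF18A stayed below 0 there, at −0.32, −0.14 and −0.69. In set 1, 4 members had an unadjusted p under 0.05, namely AURKA, CCNB2, MAD2L2 and KIF1C, where 12% of all rows did.

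With both sets in the limma fit, 8 members (11.3%) had an unadjusted p under 0.05 for loss of mir-200c, where 8.88% of all rows passed in either direction. All 8 had estimates below 0, but the share of all rows by direction was not counted. They were MAD2L1 (−0.36 ± 0.09), AURKA (−0.41 ± 0.13), KIF18A (−0.55 ± 0.18), TTK (−0.33 ± 0.11), NCAPD2 (−0.38 ± 0.13), MAD2L2 (−0.27 ± 0.10), CCNB2 (−0.28 ± 0.12) and BUB1B (−1.56 ± 0.51), each with its SE over 8 libraries. The first 6 and BUB1B had a limma adjusted p of 0.541 and CCNB2 one of 0.554. Each estimate pools both sets under 1 gene name, and whether the set 2 row holds that gene was not tested. The SE therefore cannot be read as replication of a change in that gene. The BUB1B estimate rests on its set 2 values, since set 1 alone gave −0.32.

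Loss of mir-141 was not low across the group. In set 1 it was below 0 in both backgrounds for 21 of 71 members (26.8% of all rows) and above 0 in both for 13 (25% of all rows), with a median of −0.0059 over the members and −0.0046 over all rows. NDC80 was lowest, at −0.29 in the wild type background and −0.61 in the mir-200c knockout background (−0.45 ± 0.15, SE, limma adjusted p = 0.733). NUF2 had −0.36 and −0.37 (−0.37 ± 0.13, limma adjusted p = 0.751), and ANAPC4, CENPJ and CENPQ, also among the 5 lowest, had means of −0.41, −0.32 and −0.30. NUF2 is the member whose difference was most alike in both backgrounds among these 5. KIF5C was highest, at 0.21 and 0.70 (0.45 ± 0.17, limma adjusted p = 0.782), with CENPE, KIF24, KIF13B and KIF14 after it at means of 0.38, 0.24, 0.24 and 0.22. In set 2, 2 of these 10 genes had the opposite sign, CENPQ at 0.02 and KIF24 at −0.14. NDC80, NUF2 and KIF5C were the 3 members under an unadjusted 0.05 in set 1 (6.35% of all rows), and over both sets NDC80, NUF2 and CENPM were (5.15% of all rows).

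Genes of the same pathway outside the symbol rule were also mostly below 0 in set 1 for loss of mir-200c. Of 68 measured genes for spindle, kinetochore, cohesin, cytokinesis and mitotic entry, 0 passed the test with limma. For loss of mir-200c in set 1, 43 of the 68 were below 0 in both backgrounds, where 34.1% of all rows were, with a median of −0.18. In set 2, 24 of 68 were below 0 in both, near the 31.9% of all rows, with a median of −0.02. MKI67, the proliferation marker Ki-67, had −0.17 in mir-141 KO, −0.52 in mir-200c KO and −0.30 in double KO cells. GTSE1, a microtubule-bound protein of late cell cycle, had −0.34, −0.92 and −0.79, and UBE2C, the ubiquitin-conjugating enzyme of the APC/C, had −0.02, −0.59 and −0.30. Set 2 gave MKI67 0.12, 0.19 and −0.10, GTSE1 −0.97, 0.45 and 0.85, and UBE2C −0.30, 0.31 and −0.01, so these 3 were above wild type in its mir-200c knockout. Replication genes, which act before mitosis, gave 31 of 42 below 0 in both backgrounds of set 1, where 34.1% of all rows were. Their median was −0.21, next to −0.19 for the core mitotic genes. In set 2 they gave 14 of 42 (31.9% of all rows) and a median of −0.04. The marker list for other cell types held COL1A1 of 5 fibroblast genes (−0.11, −0.41 and −0.15) and CORO1A, LCP1 and CD68 of 4 blood cell genes; CORO1A had −0.01, −0.54 and −0.48, LCP1 had −0.13, 1.05 and −0.44, and CD68 had 0.52, −0.48 and 0.40 in mir-141 KO, mir-200c KO and double KO cells of set 1. These markers did not share 1 direction, and their part in the results was not tested.

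Cell cycle inhibitors lay mostly above 0 in set 1 but not in set 2. None of the 8 measured passed the test with limma, and 2 had an unadjusted p under 0.05 for loss of mir-200c in set 1, both above 0, where 12% of all rows had one. Their median for that loss was 0.31 in set 1, with 5 above 0 in both backgrounds and 0 below (28.9% and 34.1% of all rows). In set 2 it was −0.06, with 3 above 0 in both and 2 below (27.8% and 31.9% of all rows). CDKN1A, the p21 inhibitor of cyclin-dependent kinases, had 0.05 in mir-141 KO, 0.88 in mir-200c KO and 1.01 in double KO cells of set 1. CDKN2B, the p15 inhibitor, had −0.15, 1.41 and 0.92. Both were near wild type in the mir-141 knockout and above it in the clones without mir-200c. Other inhibitors were above it in the mir-141 knockout too: CDKN2D had 0.88, 0.98 and 0.46, CDKN2A 0.46, 0.59 and 0.33, and BTG1 0.45, 0.61 and 0.52. In all 3 clones of set 1, 5 of the 8 were above 0 and 0 below, where 24.9% and 29.9% of all rows were. In set 2 CDKN1A had −0.34, 0.11 and −0.22 and CDKN2B had −0.08, 0.11 and −0.15.

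**Figure D4:**
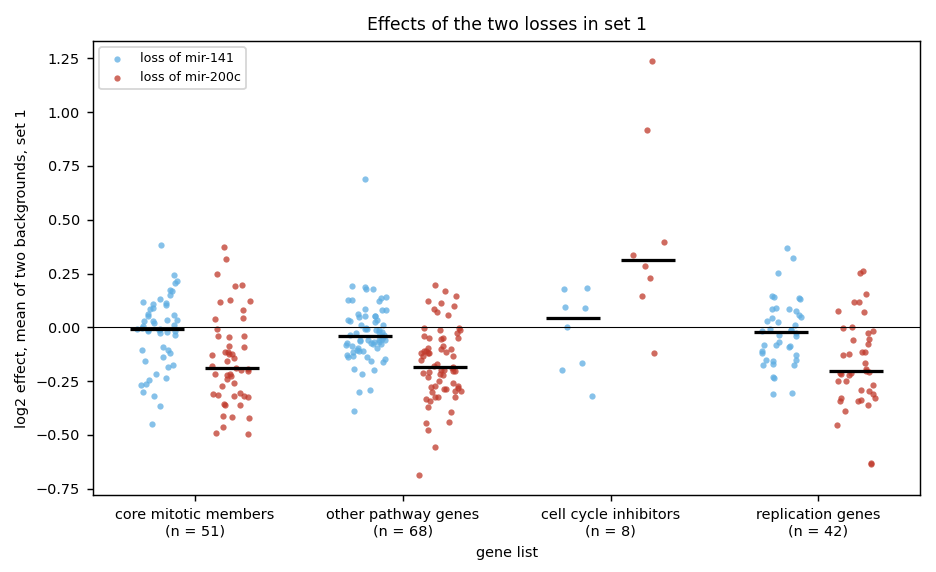
Log2 difference for loss of mir-141 (blue) and loss of mir-200c (red) in set 1, each the mean of 2 backgrounds, for the core mitotic genes, other genes of the pathway, cell cycle inhibitors and replication genes (points are genes, bars medians). For loss of mir-200c the medians are −0.19, −0.18, 0.31 and −0.21; for loss of mir-141 they are near 0.

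Promoters of late cell cycle genes are known for 2 short motifs, the CCAAT box bound by NF-Y and the cell cycle genes homology region (CHR) bound by the DREAM and MuvB complexes. The letters CCAAT, and TTTGAA or TTCGAA for the CHR, were looked for on both strands from 250 bases before to 50 after the annotated start (RefSeq, GRCh38.p14), in the 63 members with a sequence. CCAAT was found in 33 (52.4%) and the CHR letters in 32 (50.8%), against 35.7% and 16.6% of all 27305 promoters and 37.8% and 10.5% of the 7632 measured genes. Both stood together in 22 members (34.9%), against 6.58% of all promoters. Among mitotic kinesins 9 of 12 had both, and among the other kinesins 1 of 10. The promoters below are those of 3 genes with low values for loss of mir-200c, with CDC20 for its 2 matches of each motif, and the matches are in capitals.
PLK1, chr16:23678639-23678938, plus strand: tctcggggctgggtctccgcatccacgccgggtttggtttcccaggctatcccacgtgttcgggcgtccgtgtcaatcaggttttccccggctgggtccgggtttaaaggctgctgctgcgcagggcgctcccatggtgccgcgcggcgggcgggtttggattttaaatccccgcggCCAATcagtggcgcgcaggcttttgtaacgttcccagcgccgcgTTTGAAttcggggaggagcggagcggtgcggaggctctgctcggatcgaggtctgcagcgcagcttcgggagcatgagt
CCNB2, chr15:59104896-59105195, plus strand: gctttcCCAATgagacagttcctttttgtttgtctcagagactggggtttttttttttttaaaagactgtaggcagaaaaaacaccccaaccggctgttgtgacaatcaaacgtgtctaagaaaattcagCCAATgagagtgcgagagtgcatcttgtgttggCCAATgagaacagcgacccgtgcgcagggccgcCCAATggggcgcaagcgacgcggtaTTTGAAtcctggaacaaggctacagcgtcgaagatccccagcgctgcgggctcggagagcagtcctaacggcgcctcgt
BUB1, chr2:110678014-110678313, minus strand: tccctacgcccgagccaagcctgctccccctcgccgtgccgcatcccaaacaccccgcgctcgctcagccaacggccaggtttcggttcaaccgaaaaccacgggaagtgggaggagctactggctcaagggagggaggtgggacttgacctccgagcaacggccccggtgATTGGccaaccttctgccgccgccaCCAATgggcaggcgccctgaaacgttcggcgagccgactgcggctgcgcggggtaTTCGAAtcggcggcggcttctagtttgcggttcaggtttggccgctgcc
CDC20, chr1:43358731-43359030, plus strand: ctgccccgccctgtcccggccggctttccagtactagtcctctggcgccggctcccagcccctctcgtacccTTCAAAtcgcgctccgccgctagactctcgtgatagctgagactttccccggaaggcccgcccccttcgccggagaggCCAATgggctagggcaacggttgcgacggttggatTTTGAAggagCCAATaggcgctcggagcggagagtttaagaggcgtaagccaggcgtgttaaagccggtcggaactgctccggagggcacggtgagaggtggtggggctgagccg

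The order of the motifs was the same in the first 3: the CHR letters began 29 bases before the start in PLK1 and in CCNB2 and next to it in BUB1, downstream of the nearest CCAAT in each. CDC20 has 1 of its 2 CHR matches upstream of both CCAAT boxes and the other between them. ATTGG and TTCAAA are the same motifs read on the other strand, and TTCGAA reads alike on both. For loss of mir-200c in set 1, the 22 genes with both motifs had a median of −0.18 with 18 below 0, the 21 with 1 of them −0.12 with 15 below 0, and the 20 with neither −0.040 with 12 below 0. The double knockout clone did not follow that order, with medians of −0.21, −0.11 and −0.14. KIF14, KIF20B, KIF24 and CENPW have both motifs too and were above 0. Of the 22 genes with both motifs 21 are core mitotic genes, where 44 of the 63 members with a sequence are. Motif and role thus overlap and cannot be told apart here. A match is a string of letters, not a measured binding site, and no test was made of this order.

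**Figure D5:**
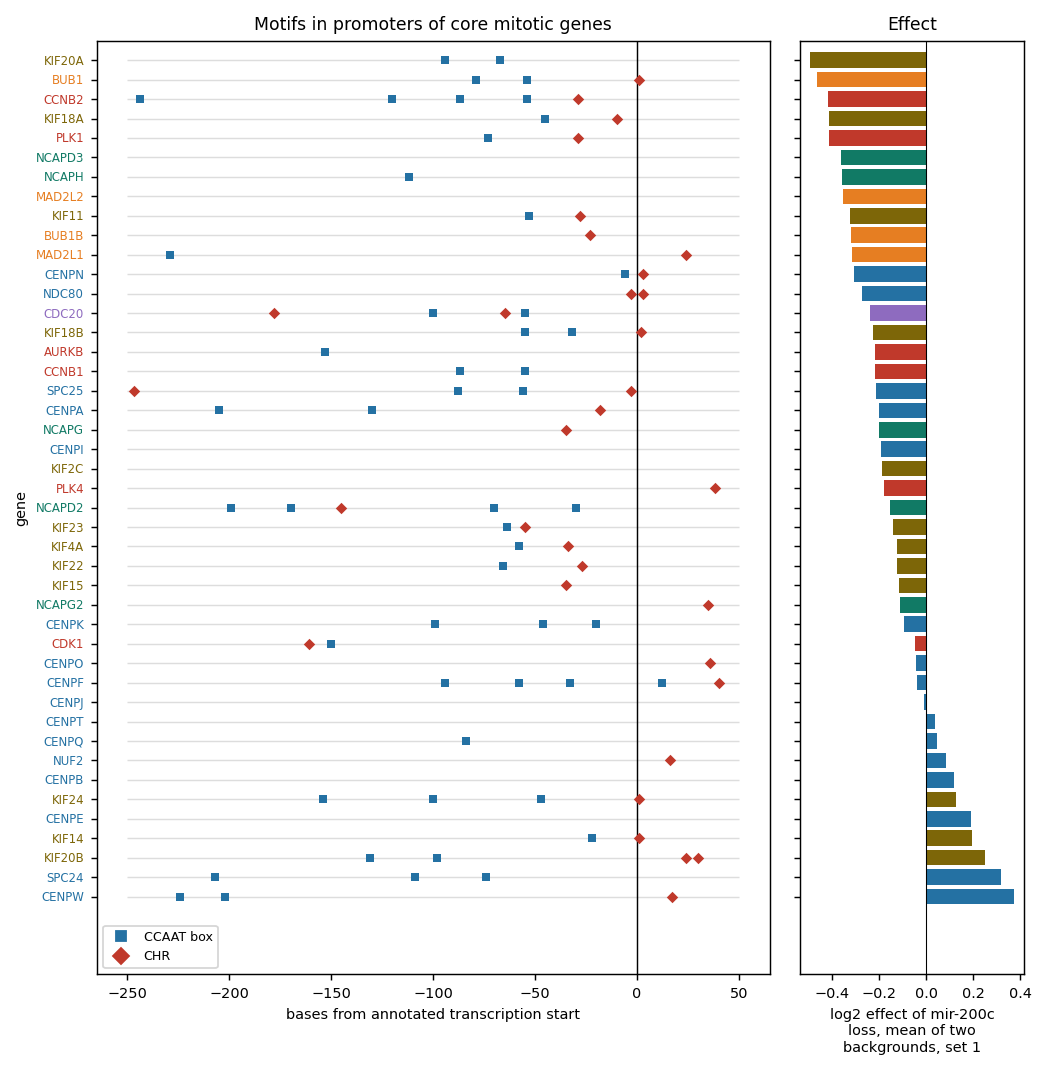
Left, first base of each CCAAT box (squares) and CHR match (diamonds) relative to the annotated start for the 44 core mitotic genes with a promoter sequence, ordered by the bar at right, the mean log2 difference for loss of mir-200c in set 1. Genes with both motifs lie between BUB1 at −0.47 and CENPW at 0.37; KIF20A, the lowest at −0.49, has CCAAT boxes and no CHR match.

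Counting rules limit some of these genes. The sources used here do not say whether reads were counted by strand, and 24 members have exons that overlap a gene on the opposite strand, PLK1, KIF20A and NUF2 among them. Pseudogene copies are annotated for 10 members, AURKA, BUB1, CCNB2 and CDC20 among them, and BUB1B shares exons with the read-through gene BUB1B-PAK6.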

How the data were processed

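The 8 libraries were made from poly(A)-selected RNA of SK-BR-3 cells and sequenced on an Illumina instrument, per the labels' protocols. TopHat2 and the build GRCh37.p10 are named in the submitters' processing notes; their version and how reads were counted, scaled and filtered are not given in the sources used here. As values, the authors deposited log2 ratios of each clone to its set's wild type, with column means near 0; depth is unknown. Because ratios replace levels, each wild type was set to 0, which makes the experimental set, named in the labels, a block. The labels do not say that libraries of a group are separate cultures, so p-values measure only the spread between these libraries.

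Limma 3.58.1 in R 4.3.3 was fitted to all 9245 rows, two-sided: a 4-group model (3 residual degrees of freedom), an additive model of both losses (4), and the additive model in set 1 alone (1). On simulated data the set 1 fit called more unchanged genes than its threshold allows. Rows were matched to GENCODE 29 for 9226 genes (9011 by accession, 215 by symbol). Genes named in the text were set by role, by the 5 lowest and 5 highest differences for each loss in set 1, or by an adjusted p under 0.05; CENPB, CENPH, CENPM, NCAPH2 and others outside that rule were named after their values were seen. Members and lists were chosen with earlier results of these data known. Alternatives were another centring, robust moderation, no block, set 2 in place of set 1 and each library left out.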

Additional observations from a re-analysis of the deposited data

How the results depend on the processing

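The count of members called stayed at 0 in all 72 alternative fits tried, including without the replicate block (0 members called), with limma adjusted p of the lowest member from 0.134 to 1.0, and with each library left out in turn. For 26 named genes, 175 of 184 alternatives kept the direction and the side of the threshold. That count does not measure reproducibility, since most alternatives reuse the same libraries and robust moderation cannot change an estimate. The other 9 changed sign with set 2 in place of set 1, the only alternative made of other libraries. They were 7 of the 10 lowest and highest genes for loss of mir-200c and 2 of the 10 for loss of mir-141. For loss of mir-200c these were KIF20A (1.28), BUB1 (0.22), KIF1C (−2.02), CENPW (−0.36), SPC24 (−0.064), KIF20B (−0.54) and ANAPC11 (−0.066), and for loss of mir-141 CENPQ (0.023) and KIF24 (−0.14). With a threshold of 1 in place of 0.5 no member was past it in any clone of set 1 (0 in each). With set 2 in place of set 1, 11 members were past 0.5 in the mir-141 knockout (12.6% of all rows were) and 15 in the double knockout (16.6% of all rows), and the medians were −0.093, −0.037 and −0.049 in mir-141 KO, mir-200c KO and double KO cells. For the core mitotic genes alone the mir-200c KO median was −0.18, and 23 members were below 0 in both backgrounds for loss of mir-200c in set 2; the cause of these shifts was not tested. Without counts the precision of low and high genes cannot be told apart, and set 1 has 1 library a group.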
